A study of Mus musculus with 2 samples.

Results

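The chemokines and their receptors were taken as every gene in the deposited gene list whose symbol fits the names of the CXC, CC, CX3C and XC ligands, of their receptors, or of the atypical receptors Ackr1 to Ackr4, leaving out 2 symbols, Cxcl10 and Cxcl13. The rule gave 64 gene identifiers, under 58 symbols, of 32285 in all: 42 ligand identifiers, 18 receptors and 4 atypical receptors. A member counted as measured in a class of cells when it had at least 20 UMIs (unique molecular identifiers, each 1 counted RNA molecule) over both libraries. By that measure 42 members were measured in at least 1 class, namely 24 ligands, 15 receptors and 3 atypical receptors.

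Chemokines are small secreted proteins that guide migrating cells along concentration gradients. They act through receptors that couple to inhibitory G proteins, while the atypical receptors bind the same ligands, do not signal through G proteins and mostly remove ligand. In skin the Cxcl12 to Cxcr4 axis guides cells during organ formation, with Ackr3 as a scavenger of Cxcl12, and the macrophage and mast cell ligands recruit leukocytes.

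Skin of the flank and dorsolateral trunk was taken from mouse embryos at E14.5, when hair follicles begin to form, and its cells were sequenced in droplets from the 3′ ends of their RNA. The Wntless mutant library came from embryos of a cross between K14Cre mice, in which Cre is driven by the keratin 14 promoter of the epidermis, and mice with the conditional allele Wntless fl/fl. The wildtype library came from littermate controls, whose own alleles are not given beyond the label wildtype. Each library pooled 2 to 3 embryos of its genotype, no strain is given, and cells were dissociated with trypsin and sorted with DAPI. Wls (Wntless), which carries Wnt proteins to the cell surface, had 1100 UMIs (125 CPM, the gene's UMIs relative to all UMIs of that class and library) in wildtype and 33 UMIs (7.64 CPM) in mutant epidermal cells. In dermal cells Wls was at 91.8 and 77.0 CPM. Where the deleted part of Wls lies relative to the sequenced 3′ end is not given in the sources used here.

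The wildtype library held 9065 barcodes with a median of 11341 UMIs, and the mutant library 10449 barcodes with a median of 14602 UMIs. The libraries shared 19 barcodes. Dermal cells were those on the authors' lists, 5300 wildtype and 5028 mutant, and the other classes were clusters named from marker genes. With 1 library per genotype no difference had a replicate check or a test. The intervals given, at the 95% level, cover counting error alone, and ratios are log2 of mutant over wildtype CPM unless 2 groups of cells of the same library are compared. A ratio past 1.5-fold is called higher or lower as a description, and a class is called highest for a member only among the classes where that member was measured.

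The promoters of Cxcr4 and Cxcl12 are shown because the dermal results turn on this receptor and its ligand. Each is the 250 bases before the gene's start in RefSeq on build GRCm38.p6, printed 5′ to 3′ on the gene's strand. Capitals mark the TATA box letters TATAAA or, on the other strand, TTTATA, and the TCF/LEF motif letters CTTTGA or TCAAAG, bound by the transcription factors of Wnt signalling. Cxcr4 lies at chr1:128592300-128592549 on the minus strand and Cxcl12 at chr6:117168285-117168534 on the plus strand.
Cxcr4: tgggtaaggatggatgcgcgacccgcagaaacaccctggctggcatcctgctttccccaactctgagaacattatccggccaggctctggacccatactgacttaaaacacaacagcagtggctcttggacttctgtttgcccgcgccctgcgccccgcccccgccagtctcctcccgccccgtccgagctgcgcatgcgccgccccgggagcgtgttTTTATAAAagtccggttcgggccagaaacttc
Cxcl12: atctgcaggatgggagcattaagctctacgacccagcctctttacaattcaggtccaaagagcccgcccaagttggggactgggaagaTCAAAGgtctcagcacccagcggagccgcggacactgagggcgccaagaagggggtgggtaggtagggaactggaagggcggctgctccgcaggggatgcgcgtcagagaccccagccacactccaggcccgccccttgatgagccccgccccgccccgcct
The Cxcr4 window held 2 overlapping TATA matches, 1 on each strand, and no TCF/LEF match. The Cxcl12 window held 1 TCF/LEF match and no TATA match. Of 32851 windows of this length, 13.8% held a TCF/LEF match and 12.4% a TATA match, and of 50 windows of members 9 and 13 did. A match describes letters and not a bound site. Of the other genes that lead the results, Cxcl14 lies at chr13:56288643-56296551, Ackr3 at chr1:90203980-90216751, Ackr4 at chr9:104084157-104126933, Ccl11 at chr11:82057823-82062955 and Ccr10 at chr11:101172997-101175443, in the GENCODE annotation of GRCm38.

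Across the classes the members fell into a few wide patterns (plot of CPM by class and library). Cxcl14, a ligand made by epithelia and fibroblasts, was measured in 11 classes and was highest in the epidermis, at 1477 CPM in wildtype and 1193 CPM in mutant cells. Cxcl12 was measured in 10 classes and was highest, in wildtype, in Schwann or neural crest cells, at 228 and 181 CPM, while mutant fibroblasts off the authors' dermal lists had 191 CPM. Ccl25, a ligand of Ccr9, was also measured in 10 classes, at 5.30 to 19 CPM in all of them, and its exons overlap those of Elavl1 on the opposite strand. Whether the counting used strand is not given in the sources used here, so whether reads of such pairs were told apart is not known. At the other end, 13 members were measured in 1 class alone. Among them were Ccl17 and Ccr8 in mast cells and Ccr10 and Cx3cl1 in the epidermis. In blood endothelial cells Cx3cl1 had 5 wildtype and 14 mutant UMIs, under the minimum, at 5.30 and 9.18 CPM. Mutant epidermal cells had 4.86 CPM of Cx3cl1. Its listing in 1 class therefore rests on that minimum.

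**Figure D1:**
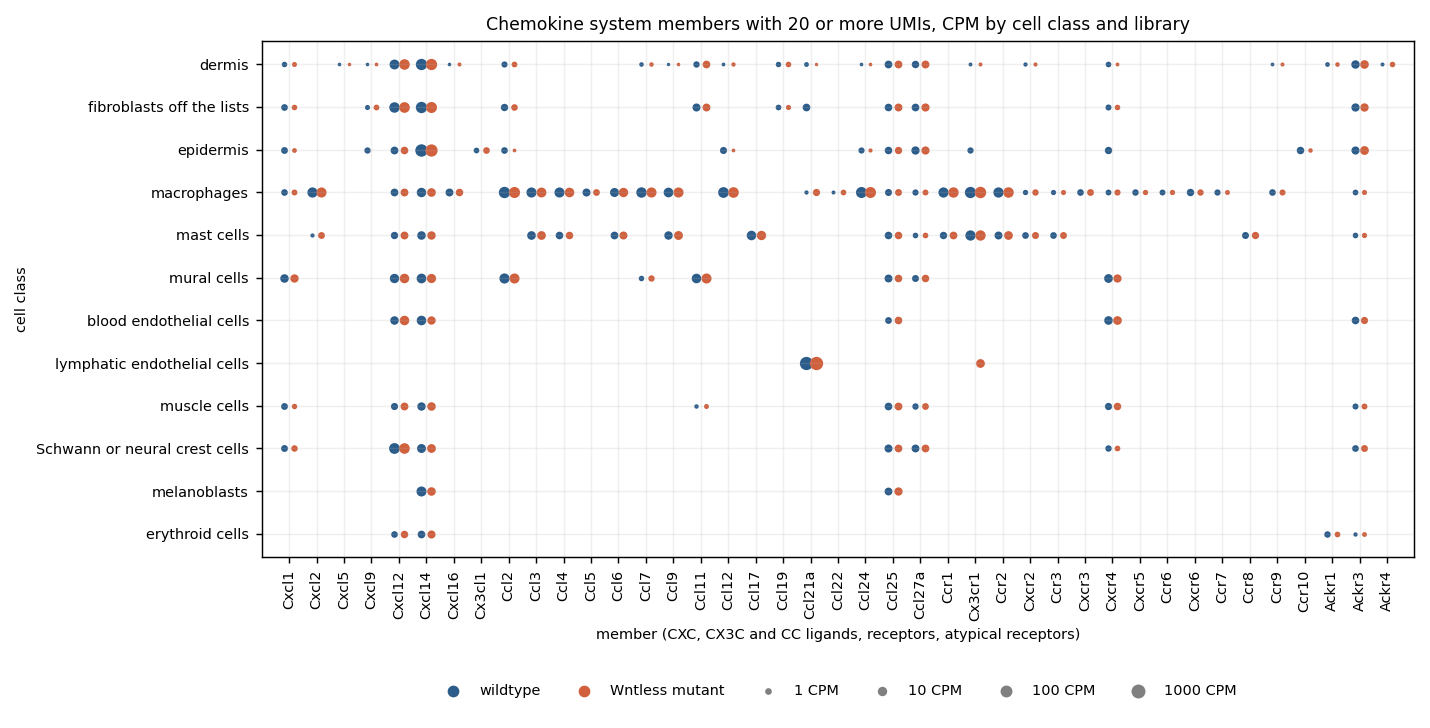
Each point is 1 member in 1 cell class and library, with its area set by CPM, for members with at least 20 UMIs over both libraries in that class. Cxcl14 and Cxcl12 span the rows, the macrophage row holds the most members, and Ccl21a is largest in lymphatic endothelial cells at 4200 and 4940 CPM.

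In dermal cells the ligands Cxcl12 and Ccl11 and the scavenger Ackr4 were higher in the mutant library, and the receptor Cxcr4 was lower. Of 64 members 24 were measured in the dermis: 7 were at least 1.5-fold higher, 3 were at least 1.5-fold lower and 14 were in between (median ratio 0.11). Over all 15609 genes measured there, 10.9% were higher and 5.64% were lower, with a median of 0.03. The intervals for Ccl9 and Ccr9, both among the 7, reached below 0. The balance of members turned over when the 6 clusters with at least 50 dermal cells of each library were given equal weight. More members were then lower than higher, and their median ratio was below 0. The share of all genes under this weighting is not given, so the change cannot be read as particular to the members. The libraries differed in cluster make-up, with 525 wildtype and 2175 mutant dermal cells in cluster 0 and 1310 and 14 in cluster 3. The part of this make-up in the member counts was not tested.

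Among the dermal ligands, Cxcl12, the ligand of Cxcr4 and Ackr3, had 5341 UMIs (84.9 CPM, 82.7 to 87.3) in wildtype and 14010 UMIs (173 CPM, 170 to 175) in mutant cells. Its log2 ratio was 1.02 (0.98 to 1.07). Cxcl12 was seen in 47.1% of wildtype and 78.6% of mutant dermal cells (28.3% and 51.1% after thinning to 5000 UMIs per cell). Its level differed between the clusters that made up the dermis. In 5 of 6 clusters holding at least 50 dermal cells of each library the ratio was above 0, from 0.32 (cluster 5) to 1.16 (cluster 2), and in cluster 12 it was -0.22 (-0.56 to 0.11). Weighting those clusters alike gave 0.54, within 1.5-fold. Cluster 3, led by Stmn2 and Dkk1, held 1310 wildtype and 14 mutant dermal cells, and its wildtype cells had 55.2 CPM of Cxcl12.

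Ccl11 (eotaxin, a ligand of Ccr3) had 236 UMIs (3.75 CPM) in wildtype and 909 UMIs (11.2 CPM) in mutant dermal cells, a log2 ratio of 1.58 (1.37 to 1.79). By cluster its ratio ran from 0.02 in cluster 0, where both libraries were near 15.5 CPM, to 1.65 in cluster 5, at 8.63 and 27.1 CPM. Cxcl14 was level, with 25583 and 32345 UMIs (407 and 398 CPM, ratio -0.03, -0.05 to -0.01). Within clusters Cxcl14 ran from -0.80 (cluster 12) to 0.42 (cluster 2). Among less abundant ligands, Ccl27a, a skin ligand of Ccr10, had 584 and 1090 UMIs and a ratio of 0.53 (0.39 to 0.68). Ccl27a lies in a duplicated part of chromosome 4 with near-identical copies and overlaps Il11ra1 on the opposite strand, and Ccl19 and Ccl21a lie in the same duplicated part, so their counts are uncertain.

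The neutrophil ligand Cxcl1 was at 1.77 and 1.16 CPM (111 and 94 UMIs, ratio -0.61, -1.02 to -0.20, and -0.50 in cells with at least 1000 genes and under 5% mitochondrial UMIs), and the monocyte ligand Ccl2 was at 3.15 and 2.23 CPM (198 and 181 UMIs, -0.50, -0.80 to -0.20), with 46 of the 181 in 1 cell. In clusters 0, 1, 2 and 7 Ccl2 was at -1.57, -1.26, -1.83 and -3.14, and in cluster 5 at 3.07 (4 and 55 UMIs). Ccl19, a ligand of Ccr7, was at 1.77 and 1.96 CPM, and Ccl25 at 12.1 and 12.6 CPM. The remaining ligands had few UMIs. Cxcl16 had 10 and 31 (1.26, 0.20 to 2.46, and 0.28 after thinning), and it overlaps Zmynd15 on the opposite strand. Ccl12 had 16 and 45 (1.12, 0.27 to 2.05). Ccl9 had 6 and 14, Cxcl9 10 and 19, Ccl24 12 and 16, Cxcl5 11 and 12, and Ccl7 47 and 54. Ccl12 was at -0.31 with the shared clusters weighted alike. Summed macrophage markers were at 6.71 and 9.73 CPM in these dermal cells, all 12 detected in both, and their part in the levels of macrophage ligands was not tested. Ccl21a had 60 and 7 UMIs, a ratio of -3.47, and 51 of the 60 wildtype UMIs were in 1 cell.

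The receptors were sparse in the dermis. Cxcr4 had 130 UMIs in wildtype and 24 in mutant dermal cells, at 2.07 (1.73 to 2.46) and 0.296 (0.189 to 0.44) CPM, a ratio of -2.81 (-3.50 to -2.17). A Cxcr4 UMI was found in 104 (1.96%) of the wildtype and 23 (0.457%) of the mutant dermal cells. Among the other receptors were Cxcr2, a receptor of Cxcl1 and Cxcl2 (34 and 35 UMIs), Cx3cr1 (19 and 31) and Ccr9 (15 and 32, ratio 0.72, -0.20 to 1.72, and 0.36 with the shared clusters weighted alike).

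Of the atypical receptors, Ackr3 had 1357 and 2048 UMIs (21.6 and 25.2 CPM, ratio 0.23, 0.13 to 0.33). Ackr4, a scavenger of Ccl19, Ccl21 and Ccl25, had 23 UMIs (0.366 CPM) in wildtype and 148 UMIs (1.82 CPM) in mutant cells, the largest positive ratio of the measured dermal members at 2.32 (1.68 to 3.02). In cluster 0 there was 1 wildtype Ackr4 UMI in 525 cells and there were 101 mutant UMIs in 2175 cells (4.27, 1.76 to 9.59). Cluster 2 had 6 and 30 (2.58, 1.30 to 4.14). Ackr4 overlaps Acad11 on the opposite strand. Ackr1, a scavenger of inflammatory chemokines whose exons overlap Cadm3 on the same strand, had 54 and 59 UMIs (-0.24, -0.80 to 0.32).

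**Figure D2:**
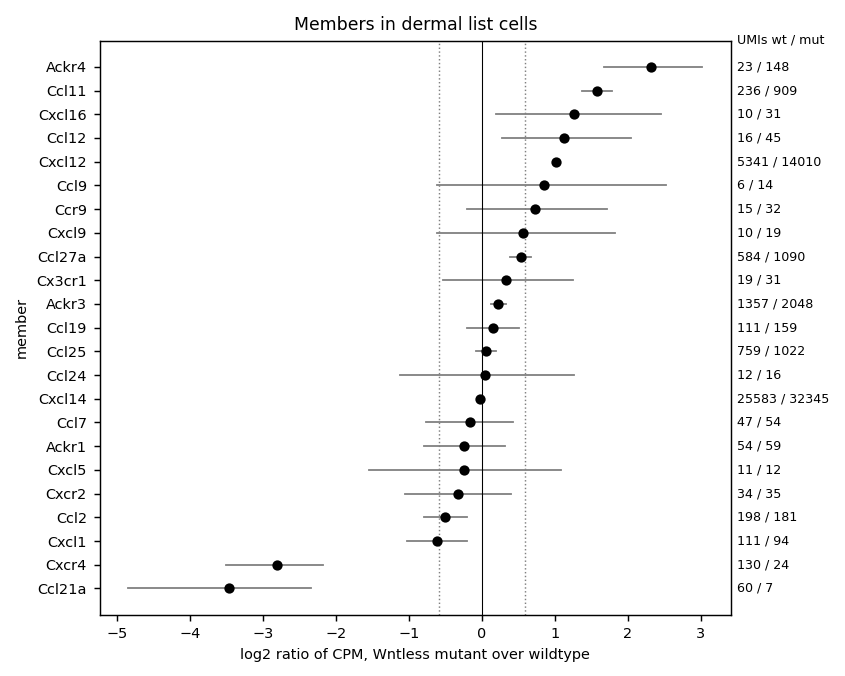
Points are log2 ratios of mutant over wildtype CPM for members measured in dermal cells, lines are 95% counting intervals, dotted lines mark 1.5-fold, and UMIs per library stand at the right. Ackr4 (2.32) and Ccl11 (1.58) lie highest, Cxcl12 at 1.02 has the narrowest interval of the higher members, and Cxcr4 (-2.81) and Ccl21a (-3.47) lie lowest.

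The dermal condensate is the fibroblast cluster under the placode that becomes the dermal papilla. Condensate cells were the dermal cells in which 3 or more of 8 core genes were detected, none of them a member, and 379 wildtype cells met this. Within the wildtype library they held 91 of the 130 dermal Cxcr4 UMIs, at 20.7 CPM (16.7 to 25.4) against 0.667 CPM in the other dermal cells, which is 31.0-fold more. A Cxcr4 UMI was seen in 66 of 379 condensate cells, or 17.4% (13.7 to 21.6%, Clopper-Pearson), and in 40 of 370 (10.8%) after thinning. Wildtype erythroid cells, taken as a class without Cxcr4, gave 0 of 646, which by the limit of 3 cells taken for a count of 0 allows up to 0.464% of cells with a UMI, at a median of 8111 UMIs against 10393 in the condensate. Those erythroid cells had a median of 179 genes against 3138 in the condensate, so their 0 is a weak measure of background.

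The same condensate cells had less of both other parts of the axis. Cxcl12 was at 20.9 against 89.8 CPM in the other wildtype dermal cells (-2.10, -2.41 to -1.80), and Ackr3 at 6.14 against 22.7 CPM (-1.89, -2.50 to -1.34). Cxcl14 was at 146 against 426 CPM (-1.54), Ccl11 had 2 UMIs, and Ccl25 was at 11.4 against 12.1 CPM. Cells with at least 2 of Sox2, Sox18, Foxd1 and Gal, a stricter definition chosen after seeing the data, numbered 300 in wildtype and 0 in the mutant library, and in them Cxcr4 had 88 UMIs (27.6 CPM) and Cxcl12 34 (10.7 CPM). Cluster 17, led by Foxd1, Gal, Sox18 and Sox2, held 216 wildtype and 0 mutant dermal cells, and its Cxcr4 was at 37.5 CPM.

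No genotype comparison within the condensate is reported. The 33 mutant cells that met the 3 of 8 definition had Tbx18 and Inhba in all 33 and Prdm1 in 26, but Sox2 in 1, Foxd1 in 1, Sox18 in 2 and Gal in 0. These cells had no Cxcr4 UMI and Cxcl12 at 161 CPM, near the 173 CPM of all other mutant dermal cells. Without condensate cells the dermal Cxcr4 ratio was -1.16 (-1.96 to -0.39, 39 and 24 UMIs), and that of Cxcl12 was 0.94.

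The upper and lower dermal ranges were the top and bottom parts of a score of upper against lower dermal genes, with 2466 and 839 upper and 1312 and 1994 lower cells in wildtype and mutant. They are ranges and not cell types, and 1655 of 9916 cells lay within 0.1 of a limit of the score. The upper genes included Lef1, Tcf7, Axin2, Dkk1 and Apcdd1, genes of Wnt signalling, and the limits were set on both libraries pooled. A range therefore need not hold the same kind of cells, or the same depth of skin, in wildtype and mutant. In wildtype, Cxcl12 was at 55.9 CPM in the upper and 133 CPM in the lower range (1.25, 1.15 to 1.34). In the mutant library the difference was small, at 157 and 175 CPM (0.16, 0.09 to 0.23). The genotype ratio of Cxcl12 was 1.49 (1.39 to 1.58) in the upper and 0.40 (0.32 to 0.47) in the lower range. Cxcl14 was level in wildtype, at 378 and 376 CPM, and in the mutant library it was 479 CPM in the upper and 266 CPM in the lower range.

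Of 13 members measured in the upper range, 4 were higher and 3 lower in the mutant, beside 8.28% and 6.53% of all genes. The higher ones included Ackr4, with 10 and 47 UMIs (0.331 and 3.35 CPM, ratio 3.34, 2.34 to 4.49), Ccr9 (9 and 11 UMIs), and Ccl11, with 28 and 22 UMIs (0.76, -0.11 to 1.62). Cxcr4 had 21 and 1 UMIs, Ackr1 23 and 4, and Ccl2 56 and 14 (-0.89, and 0.17 with limits set within each library). Ackr3 (19.4 and 23.0 CPM), Ccl27a (7.34 and 9.63), Ccl19 (1.99 and 1.93) and Ccl25 (11.8 and 10.8) lay within 1.5-fold.

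In the lower range 3 of 18 measured members were higher and 2 lower, beside 7.55% and 2.95% of all genes. Ccl11 had 74 and 406 UMIs (5.34 and 13.2 CPM, ratio 1.31, 0.95 to 1.69, and 0.46 with limits set within each library). Ccl19 had 14 and 61 UMIs (0.98, 0.12 to 1.93), and Cxcl1 was at 4.76 and 2.34 CPM (-1.02, -1.52 to -0.52). Ccl12, with 4 and 16 UMIs, and Cxcr4, with 15 and 15 (-1.15), were the other called members. Ackr4 had 9 and 16 UMIs there (-0.32, -1.58 to 1.04), and whether this differs from its ratio in the upper range was not tested. Ackr3 was at 35.0 and 30.8 CPM, Ackr1 at 1.08 and 1.40, Ccl27a at 14.1 and 18.8, Ccl25 at 12.8 and 13.6, and Ccl2 at 2.16 and 2.63 CPM. Cxcl1 was also 8.99-fold higher in the lower than in the upper range of the wildtype library.

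**Figure D3:**
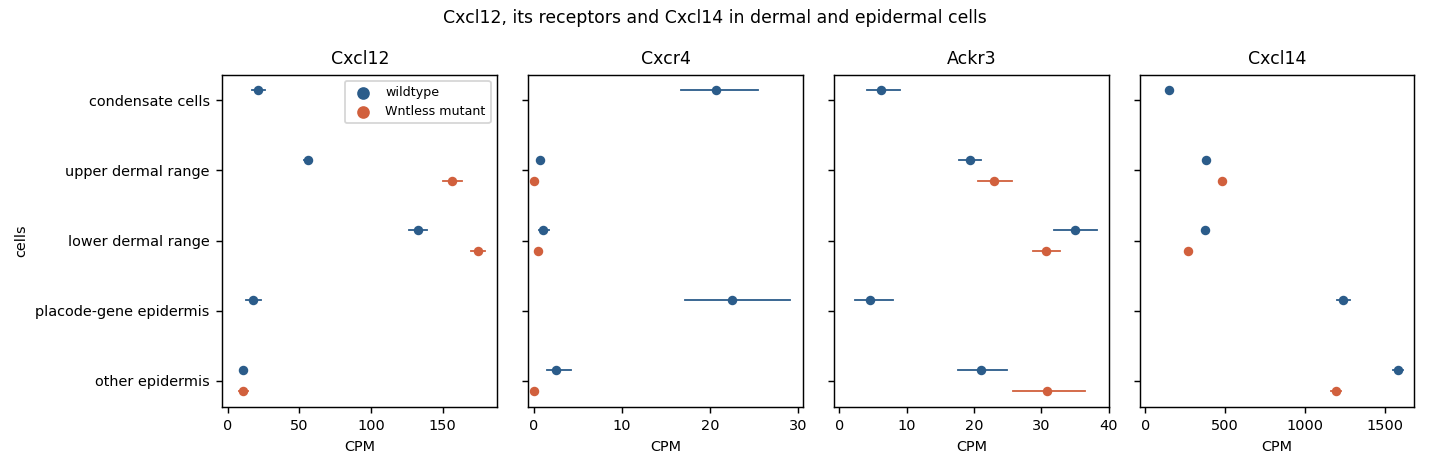
Points are CPM of Cxcl12, Cxcr4, Ackr3 and Cxcl14 in dermal and epidermal cells of each library, and lines are 95% Poisson intervals. Mutant values are left out for the condensate and for placode-gene cells, for which the mutant library held 33 cells, nearly all without Sox2, Sox18, Foxd1 and Gal, and 0 cells. Cxcr4 is high in the wildtype condensate (20.7 CPM) and placode-gene epidermis (22.6 CPM), where Ackr3 is low (6.14 and 4.59 CPM).

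In the epidermis as a whole the receptors Cxcr4 and Ccr10 and the ligands Cxcl1 and Cxcl9 were lower in the mutant library, and Ackr3 was higher. In finer epidermal clusters with at least 50 cells of each library, Ackr3 lay within 1.5-fold and the Cxcl1 ratio changed sign. The mutant epidermis held 4 Cxcl1 UMIs in all, and no interval is given for the Cxcl1 ratio in those clusters. The class held 539 wildtype and 173 mutant cells. Of 64 members 14 were measured: 2 were higher, 8 lower and 4 in between (median ratio -2.32), beside 7.71% and 15.6% of all 11568 genes and a median of -0.10. Of the 8, 4 were macrophage genes and are given last.

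Cxcr4 had 75 UMIs (8.53 CPM, 6.71 to 10.7) in wildtype and 0 in mutant epidermal cells, at least 12.3-fold lower. A Cxcr4 UMI was seen in 52 of 539 wildtype cells (9.65%, 7.29 to 12.5%) and 0 of 173 mutant cells, which by the limit of 3 cells allows up to 1.73% of cells with a UMI. After thinning to 5000 UMIs it was 17 of 494 (3.44%) and 0 of 161. Ccr10, the receptor of Ccl27a and Ccl28, had 85 UMIs (9.66 CPM) and 3 UMIs (0.695 CPM), a ratio of -3.80 (-6.10 to -2.20). Dermal cells, which should lack Ccr10, had it in 0.0943% and 0.119% of cells, against 12.6% and 1.73% of epidermal cells, at median depths of 11154 and 15566 against 14794 and 23427 UMIs.

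Among the ligands, Cxcl1 had 48 and 4 UMIs (5.46 and 0.926 CPM, ratio -2.56, -4.49 to -1.11). Cxcl9, an interferon-induced ligand of Cxcr3, had 31 and 0 UMIs, at least 5.07-fold lower. Cxcl14 was at 1477 and 1193 CPM (12991 and 5152 UMIs, -0.31, -0.35 to -0.26). Ccl27a was at 18.9 and 17.1 CPM, and Ccl25 at 9.66 and 8.34 CPM. Cxcl12 had 111 and 45 UMIs (12.6 and 10.4 CPM), and 13 and 14 once the 8% of barcodes with the highest doublet scores were left out. Summed dermal fibroblast markers, all 10 detected, were at 2099 and 1615 CPM in this class. Without those barcodes they were at 853 and 498 CPM, with Pdgfra at 0 in the mutant library, and their part in the Cxcl12 level was not tested.

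Ackr3 had 142 and 133 UMIs, at 16.1 (13.6 to 19) and 30.8 (25.8 to 36.5) CPM, a ratio of 0.93 (0.58 to 1.28). Cx3cl1, the membrane-bound ligand of Cx3cr1, had 19 and 21 UMIs (1.17, 0.20 to 2.15). These were the 2 higher members, and in finer epidermal clusters with at least 50 cells of each library they were at 0.17 and 0.12.

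Hair placodes are the epidermal thickenings that start a follicle. The wildtype epidermis held 159 cells in which 3 or more of 6 placode genes were detected (Dkk4, Shh, Fgf20, Bmp2, Edar and Lhx2), and the mutant epidermis held 0. This split was chosen after seeing the data. The 159 cells carried 59 of the 75 wildtype Cxcr4 UMIs (22.6 against 2.59 CPM in the other 380 cells), 53 of the 85 Ccr10 UMIs (20.3 against 5.18 CPM), 31 of 48 for Cxcl1 and 18 of 31 for Cxcl9. Ackr3 ran the other way, at 4.59 against 21.0 CPM (-2.20, -3.19 to -1.34). Cxcr4 was thus high and Ackr3 low in both wildtype condensate and placode-gene cells.

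With the placode-gene cells left out, Cxcr4 still had 16 wildtype and 0 mutant UMIs, and Ccr10 had 32 and 3 (-2.90, -5.25 to -1.22). Ackr3 was at 0.55 (0.19 to 0.91), Cxcl1 at -1.57 (-3.60 to 0.05) and Cxcl14 at -0.40. In finer epidermal clusters with at least 50 cells of each library, Cxcl1 was at 0.97, Ackr3 at 0.17 and Cx3cl1 at 0.12. The Cxcl1 value rests on few mutant UMIs.

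The other 4 lower members were macrophage genes. Ccl12 had 60 and 1 UMIs, Ccl2 42 and 1, Ccl24 28 and 2, and Cx3cr1 30 and 0. In the wildtype library 10 epidermal cells in which 3 or more of 12 macrophage markers were detected held 59, 37, 27 and 28 of these UMIs. Without those cells the counts were 1 and 1 for Ccl12, 5 and 1 for Ccl2, 1 and 2 for Ccl24, and 2 and 0 for Cx3cr1. Summed macrophage markers were at 126 and 10.2 CPM in all epidermal cells and at 13.9 and 10.2 CPM without the 10 cells, with Fcgr3, Adgre1 and Csf1r then at 0 in wildtype and Fcgr3, Adgre1 and Lyz2 at 0 in the mutant.

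**Figure D4:**
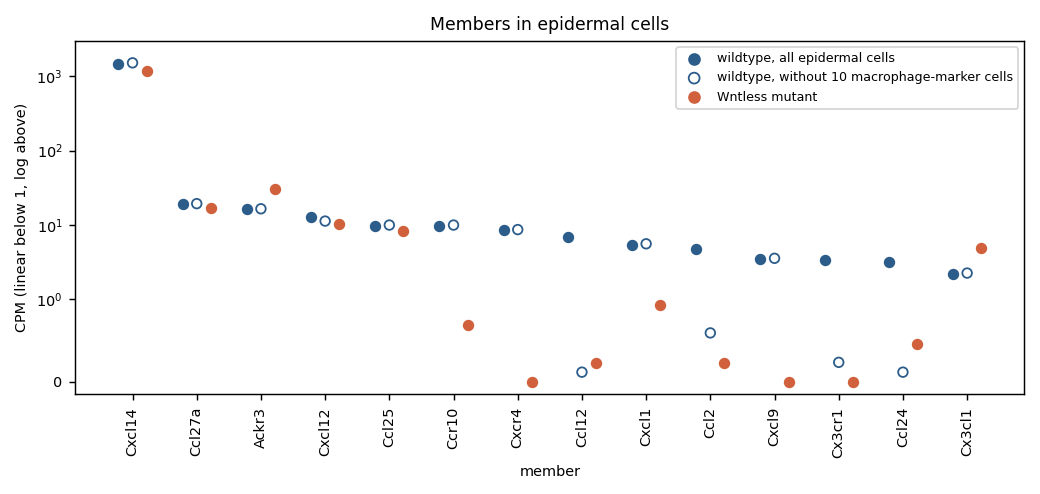
CPM of the 14 members measured in epidermal cells, on an axis that is linear below 1 and log above, for all wildtype cells (filled blue), wildtype cells without the 10 macrophage-marker cells (open) and mutant cells (red). Ccl12, Ccl2, Ccl24 and Cx3cr1 drop to below 1 CPM without the 10 cells, while Cxcr4 keeps 73 of its 75 wildtype UMIs and Ccr10 84 of 85.

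Macrophages (330 wildtype and 404 mutant cells) held 32 measured members, the most of any class, and of the ligands and receptors with over 1000 UMIs all but Ccl4 differed by less than 1.5-fold. Of the 32, 3 were higher, 10 lower and 19 between (median -0.21), beside 4.5% and 9.66% of all genes and a median of -0.09. With the 8% highest doublet scores left out, 4 members were lower (the share of all genes is not given). Summed dermal fibroblast markers, all 10 detected, then went from 2221 and 1434 CPM to 126 and 141 CPM.

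The most abundant macrophage ligands were Ccl2 (414 and 314 CPM, ratio -0.40), Ccl24, a ligand of Ccr3 (292 and 284, -0.04), and Ccl12, a ligand of Ccr2 (212 and 182, -0.22). Ccl7 was at 150 and 108 CPM (-0.48), Cxcl2 at 123 and 107 (-0.20), and Ccl3 at 108 and 83.5 (-0.37). Ccl4, a ligand related to Ccl3, was at 106 and 66.9 CPM (-0.66, -0.82 to -0.50, and -0.57 with median-of-ratios scaling, within 1.5-fold). The neighbouring genes Ccl9 and Ccl6, ligands of Ccr1, ran the other way, at 71.1 and 106 CPM (0.58, 0.41 to 0.75) and at 36.9 and 51.5 CPM (0.48, 0.25 to 0.72). Among sparser ligands, Cxcl16, the ligand of Cxcr6, had 77 and 101 UMIs (-0.46). Ccl5 had 86 and 53 (-1.55), with 60 and 28 of them in 1 cell each. Ccl22 had 2 and 22, and all 22 mutant UMIs were in 1 cell. Cxcl1 had 27 and 26 UMIs (-0.90).

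Several ligands of other classes were seen at low levels in macrophages. Cxcl14 was at 56.2 and 26.0 CPM (-1.11), and at 2.37 and 2.16 CPM without the top doublet scores. Cxcl12 was at 12.1 and 13.1 CPM, and Ccl25 at 6.32 and 5.76. Ccl21a had 3 and 76 UMIs, 69 of the 76 in 1 cell.

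The fractalkine receptor Cx3cr1 was the most abundant receptor in macrophages, with 2193 and 4768 UMIs (385 and 465 CPM, ratio 0.27, 0.20 to 0.35), and was seen in 85.2% and 84.2% of cells. Its exons overlap those of Gm33858 on the opposite strand. Ccr2, the monocyte receptor of Ccl2, was at 127 and 162 CPM (0.35) but in 28.8% and 35.1% of cells only. Ccr1, a receptor of Ccl3 and Ccl9, was at 117 and 139 CPM (0.24). Cxcr6 had 51 and 38 UMIs (-1.27, -1.92 to -0.64, and -0.079 after thinning), Ccr9 26 and 30 (-0.64, and -0.30 after thinning), and Cxcr3 27 and 56 (0.20). Cxcr2, with 9 and 39 UMIs (1.27, 0.20 to 2.50), was the receptor among the 3 higher members. Cxcr5 (23 and 16 UMIs), Ccr7, which guides dendritic cells (19 and 11), and Ccr6 (15 and 15) were lower in mutant CPM, at -1.37, -1.64 and -0.85. Cxcr5 overlaps Bcl9l, and Ccr9 overlaps Slc6a20a, each on the opposite strand. Ccr9 also overlaps Gm17200 on the same strand.

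**Figure D5:**
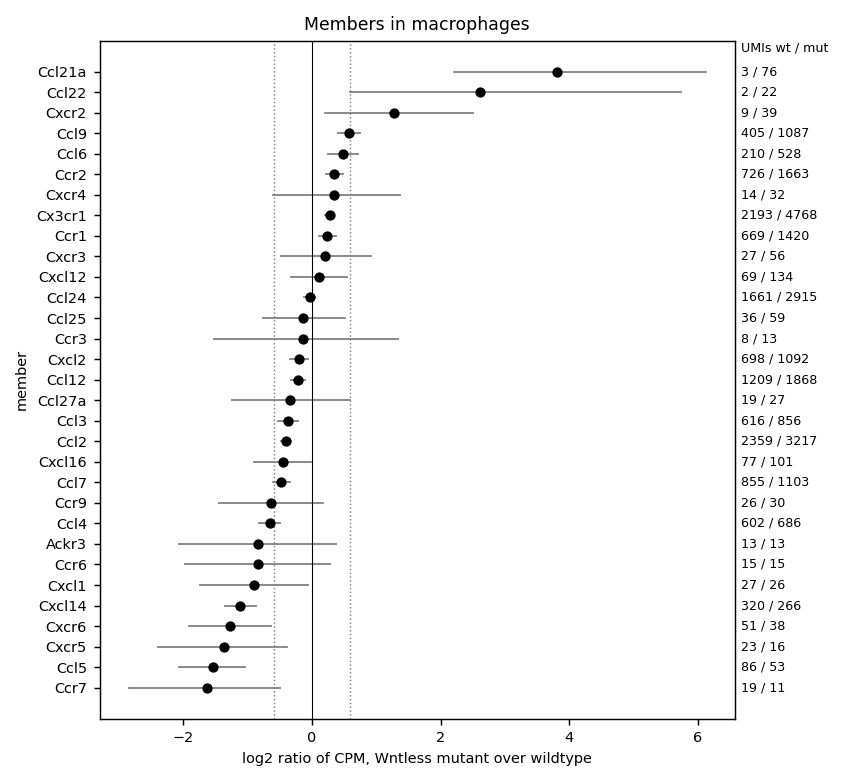
Points are log2 ratios of mutant over wildtype CPM for members measured in macrophages, lines are 95% counting intervals, dotted lines mark 1.5-fold, and UMIs per library stand at the right. Members with over 1000 UMIs lie between -0.66 and 0.58, and the widest intervals are those of Ccl21a and Ccl22, which rest on 1 cell each.

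Mast cells (159 and 254 cells) were marked by Ccl17, a ligand of Ccr4, at 60.9 and 51.0 CPM (-0.26, -0.48 to -0.03), and by Ccr8, with 25 and 69 UMIs (6.21 and 7.71 CPM, 0.31). Of 17 measured members, 4 were higher and 0 lower, beside 7.84% and 3.92% of all genes. Ccr2 was at 13.9 and 28.6 CPM (1.04, 0.62 to 1.48), or 0.14 as a mean over cells. Ccl9 was at 21.6 and 33.3 CPM (0.62, or 0.51 as a mean over cells), Cxcl12 at 8.45 and 13.3 (0.65, and -0.080 in cells with at least 1000 genes and under 5% mitochondrial UMIs), and Cxcl2 had 2 and 49 UMIs, 21 of the mutant UMIs in 1 cell. Cx3cr1 was the most abundant member, at 127 and 139 CPM.

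The eotaxin receptor Ccr3 was highest in mast cells, at 4.97 and 5.81 CPM, and so was Cxcr2, at 4.97 and 6.15 CPM. Ccr1 was at 8.94 and 11.7 CPM, Ccl3 at 27.1 and 28.4, Ccl6 at 11.9 and 15, Ccl4 at 10.7 and 10.1, Ccl25 at 10.2 and 10.1, and Cxcl14 at 23.9 and 20.7 CPM. Ccl6 was held by few cells, with 43 of 48 and 54 of 134 UMIs in the top cell. Summed macrophage markers in this class were at 1724 and 1808 CPM, with Mrc1, C1qc and C1qa at 0 in wildtype. The list includes Fcer1g and Tyrobp, and whether the mast cells themselves gave this sum was not tested.

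Mural cells, the pericytes and smooth muscle of vessels (225 and 226 cells), had, in wildtype, the highest Cxcr4, Ccl11 and Cxcl1 of the classes. Of 9 measured members, 3 were higher and 2 lower, beside 7.4% and 3.61% of all genes. Cxcr4 was at 29.3 and 18.3 CPM (146 and 118 UMIs, -0.68, -1.04 to -0.32, and -0.41 after thinning). Ccl11 was at 63.2 and 102 CPM (0.69, 0.50 to 0.89), so Ccl11 was past 1.5-fold in both dermis and mural cells. Ccl2 was at 113 and 103 CPM (-0.12), Cxcl1 at 23.7 and 20.2 (-0.23), Cxcl12 at 49.7 and 60.3 (0.28), Cxcl14 at 71.8 and 43.3 (-0.73), Ccl27a at 6.02 and 9.62 (0.68), Ccl7, with 9 and 24 UMIs, at 1.81 and 3.72, and Ccl25 at 13.6 and 10.1 CPM. Of the mutant Ccl2 UMIs, 153 of 666 were in 1 cell.

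Blood endothelial cells (48 and 67 cells) had Cxcr4 at 25.5 and 27.5 CPM (0.11, -0.64 to 0.90), level between the libraries. Of 5 measured members, 2 were higher and 1 lower, beside 10.7% and 7.86% of all genes. They were Cxcl12 (22 and 92 UMIs, 1.37), Ccl25 (5 and 16, 0.98, -0.53 to 2.79) and Cxcl14 (60 and 30, -1.69). After thinning Cxcl14 was at -0.55. Of its 60 wildtype UMIs 25 were in 1 cell, as were 22 of the 92 mutant Cxcl12 UMIs. Cxcl12 was seen in 20.8% of wildtype and 19.4% of mutant cells of this class. Lymphatic endothelial cells (17 and 32 cells) had Ccl21a, which guides Ccr7-bearing dendritic cells into lymphatics, with 953 and 3660 UMIs (4200 and 4940 CPM) and in every cell. Cx3cr1 had 0 and 21 UMIs there, in 2 mutant cells, and was the 1 higher of 2 measured members, beside 16.4% and 12.8% of all genes higher and lower.

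Fibroblasts off the authors' lists (417 and 422 cells) had more Ccl11 and Cxcl12 than the dermis in the wildtype library. Of 12 measured members, 1 was higher and 4 lower, beside 9.89% and 3.42% of all genes. Ccl11 was at 15.3 and 13.6 CPM (-0.17, -0.56 to 0.22), against 3.75 and 11.2 CPM in the dermis. Cxcl12 was at 156 and 191 CPM (0.29), against 84.9 and 173 CPM. Whether these ratios differ from those of the dermis was not tested. Ackr3 was at 18.3 and 20.0 CPM, Ccl27a at 11.4 and 16.8, Ccl25 at 10.3 and 13.7, and Cxcl14 at 407 and 289 (-0.49). Among the classes where it was measured, Ccl19 was highest here in wildtype, at 2.19 and 1.38 CPM. In lymphatic endothelial cells it had 2 and 7 UMIs, under the minimum, at 8.8 and 9.4 CPM. The 1 higher member in the fibroblasts off the lists, Cxcl9, had 8 and 22 UMIs (0.90, -0.32 to 2.28). Cxcl1 was at 5.01 and 1.91 CPM (-1.39) and Ccl2 at 8.60 and 4.57 (-0.91), and without the top doublet scores these were -0.13 and -0.10. The 73 wildtype Ccl21a UMIs of this class were all in 1 cell.

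In Schwann or neural crest cells (248 and 281 cells) Cxcl12 had 640 and 821 UMIs and a ratio of -0.34 (-0.49 to -0.19). Ccl27a was at 12.8 and 12.1 CPM, Ccl25 at 15 and 11.9, and Cxcl14 at 34.3 and 29.5. Of 7 measured members 0 were higher and 1 was lower, Cxcr4 with 11 and 10 UMIs, beside 8.6% and 4.13% of all genes. Muscle cells (519 and 480 cells) had Cxcr4 at 7.60 and 9.77 CPM (0.36, -0.08 to 0.81), Cxcl1 at 5.43 and 1.72 (-1.65), Cxcl12 at 7.06 and 13.2 (0.91, and 0.57 after thinning), Ccl27a at 3.91 and 5.25, Ackr3 at 2.93 and 2.54, Ccl25 at 11 and 12.6, and Cxcl14 at 20.1 and 22.6. Of 8 measured members 2 were higher, Cxcl12 and Ccl11 (6 and 14 UMIs), and 1 lower, Cxcl1, beside 4.6% and 5.44% of all genes. Melanoblasts (39 and 47 cells) had Cxcl14 at 98.2 and 23.5 CPM (-2.06) and Ccl25 at 12.7 and 19 CPM, the highest level in the mutant library, 1 lower and 1 higher of 2 measured members, beside 11.6% and 12.7% of all genes. Melanoblast Cxcl14 was held by 11 wildtype and 5 mutant cells, with 18 of 62 and 12 of 21 UMIs in the top cell. Of the melanoblasts, 7 and 3 were among the top 8% of doublet scores. Erythroid cells (646 and 1446 cells) had Ackr1 at 4.03 and 2.19 CPM (-0.88, -1.68 to -0.04, and -0.48 in cells with at least 1000 genes and under 5% mitochondrial UMIs), its highest class, Cxcl12 at 4.61 and 9.34 (1.02, and 0.28 in those cells), and Cxcl14 at 10.9 and 15.5. Of 4 measured members 2 were higher (Cxcl12 and Ackr3, with 3 and 18 UMIs) and 1 lower, beside 36.5% and 4.32% of all genes, and other scalings moved every ratio of this class by -0.36 or -0.13.

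The other genes of the pathway were a list of 31, made of 9 chemokine-like ligands, receptors and a peptidase and 22 genes of signal transduction. In the dermis 3 of 26 measured ones were higher and 1 lower, beside 10.9% and 5.64% of all genes. Dpp4, a peptidase that inactivates Cxcl12 and other chemokines, was at 4.61 and 13.7 CPM (1.57, 1.38 to 1.76). The chemerin gene Rarres2 was at 0.66, and the Rac activator Prex1 at 0.61. The lower one, Cd74, a receptor chain for Mif named after its values were seen, had 26 and 19 UMIs (-0.82, -1.76 to 0.09). The G protein subunit gene Gng2 was at -0.43, within 1.5-fold. In the epidermis 1 of 20 was higher and 5 lower, beside 7.71% and 15.6% of all genes. Pf4, a chemokine of platelets and macrophages, had 268 and 5 UMIs (-4.72) and is also the leading gene of the macrophage cluster. Gng2 was at -2.10, the arrestin gene Arrb2 at -1.21 and Gnai1 at 0.65. Without the 10 macrophage-marker cells Pf4 had 16 and 5 UMIs (-0.71, -2.52 to 0.80), Gng2 was at -1.83 and Arrb2 at -0.87. The other lower genes, named after their values were seen, were Rac2, with 41 and 0 UMIs, or 4 and 0 without those cells, and Elmo1, with 39 and 2, or 38 and 2. In macrophages 4 of 30 were higher and 2 lower, beside 4.5% and 9.66% of all genes. Rgs1, which damps chemokine receptor signalling, was at 12.5 and 39.4 CPM (1.66, 1.29 to 2.05), and Pik3r5 was at 1.11. The lower genes were Gnai1 (37 and 17 UMIs, -1.97) and Rarres2 (29 and 26 UMIs, -1.01). In dermal cells Gnai1 was at 39.5 and 29.5 CPM and Rarres2 at 45.0 and 71.3 CPM. The part of fibroblast RNA in their macrophage levels was not tested. The other higher genes, named after their values were seen, were Cd74, with 1082 and 3522 UMIs (0.86, 0.76 to 0.95), and Ppbp, with 15 and 45.

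Members below the minimum were 11 with no UMI, 10 with 1 to 19 UMIs, and Ccl28, with 23 and 4 UMIs but under 20 in each class. With no UMI were Cxcr1, Xcl1, Ccl26, Ccl21b, Ccl21c and second identifiers of Ccl19, Ccl21a and Ccl27a. Few UMIs were counted for Ccl20, Cxcl3, Ccl8, Ccl1, Xcr1, Ackr2, Ccr4, Cxcl15, Cxcl17 and Ccl27b.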

How the data were processed

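The deposited matrices hold whole UMI counts per gene and cell barcode, which the authors made, per the file headers, with Cell Ranger 6.1.2, on build mm10 per the submitters' processing notes, which also name Seurat. How the authors chose the deposited dermal barcodes, and whether strand was used, is not given in the sources used here. The deposited barcode and gene files hold other, non-numeric information.

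All barcodes were clustered together in scanpy 1.11.5 (2000 variable genes without the members, 30 principal components, 15 neighbours, Leiden resolution 0.5, leidenalg 0.10.2), giving 24 clusters, named where at least 3 markers were among the top 50 genes. Barcodes off the lists in unnamed clusters (578 and 1589) entered no class. Doublets were kept, and Scrublet called 225 wildtype (2.48%) and 159 mutant (1.52%) barcodes. UMIs were summed per class and library and given as CPM, with exact Poisson intervals. Ratios have exact conditional binomial intervals, and for a member at 0 a bound was computed from 3 counts in that class. No test was made, since there was 1 library per genotype, and shares above 0 have exact Clopper-Pearson intervals, while a share of 0 has a limit of 3 cells. The computation was checked on simulated data. Coordinates came from the GENCODE mouse annotation of GRCm38, which held 57 of the 64 identifiers, and promoters from RefSeq.

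Every member with at least 20 UMIs in a class was named in its class of highest CPM and wherever it had 50 UMIs, and in dermis and epidermis at 20. Of the measured members 1 is included in the counts but is not reported here. The members and lists were chosen with earlier results of these data known. Some alternatives were added after the data were seen.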

Additional observations from a re-analysis of the deposited data

Results flagged for a closer look

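Among members with at least 50 UMIs in a class, Ccl21a and Ccl12 had ratios past 1.5-fold in opposite directions in different classes with intervals that left out 0, and none of these differences was tested. Ccl21a had a log2 ratio of 3.82 in macrophages, -3.47 in the dermis and, as a bound, -5.16 in fibroblasts off the lists. The macrophage value rested on 69 of 76 mutant UMIs in 1 cell, the dermal value on 51 of 60 wildtype UMIs in 1 cell, and the off-list value on 73 wildtype UMIs in 1 cell. Ccl12 had a log2 ratio of 1.12 in the dermis (16 and 45 UMIs) and -4.88 in the epidermis (60 and 1 UMIs), where 59 of the 60 wildtype UMIs were in 10 cells with macrophage markers.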

How the results depend on the processing

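Of 131 ratios of a member in a class, those of the condensate left out, 52 were past 1.5-fold, and 25 of those fell within 1.5-fold or changed sign in at least 1 of the 23 alternatives run. The cause of these changes was not tested unless a value is given beside them. Counts of higher and lower members moved as follows. The number of members measured and the share of all genes in each alternative are not given. These counts are therefore not set against all genes. Thinned to 5000 UMIs, 3 were higher in the dermis, 1 higher and 3 lower in the epidermis and 5 lower in macrophages. Without the top 8% of doublet scores, 4 were lower in the epidermis and 4 in macrophages. With a minimum of 10 UMIs, 7 were lower in the dermis and 13 in the epidermis, and with 50 UMIs, 4 were higher in the dermis, 1 higher and 4 lower in the epidermis, and 1 higher and 6 lower in macrophages. As means over cells 6 were higher in macrophages. With members kept among the variable genes, or at resolution 1.0, 4 were lower in the epidermis, and at resolution 1.0 also 4 in macrophages. With 1000 variable genes 5 were lower in macrophages. In clusters named dermal fibroblast 6 were lower. With the shared dermal clusters weighted alike 4 were higher and 8 lower in the dermis, and the median was -0.16. Added after seeing the data, the epidermis without macrophage-marker cells had 4 lower, without placode-gene cells 1 higher and 3 lower, and in its resolution 1.0 clusters shared by both libraries 1 higher and 0 lower.

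Ratios that changed sign were Cxcl12 in mast cells (-0.080 with at least 1000 genes and under 5% mitochondrial UMIs), Ccl21a in macrophages (-0.31 without the top doublet scores, -0.11 with 1000 variable genes), Ccl12 in the dermis (-0.31 with shared clusters weighted alike), Ccl2 in the upper range (0.17 with limits within each library) and Cxcl1 in the epidermis (0.97 in shared resolution 1.0 clusters). The epidermal Cxcl1 value rests on few mutant UMIs. Thinned epidermal members at 0 gave no value. No paired analysis was possible because each genotype had 1 library. Scaling moved all ratios of a class by at most 0.10, except in erythroid cells. Depth limits the sparse receptors: in classes of under 100 cells a member at 0 cannot be told from one at low level.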
